A study of Mus musculus with 24 samples.

Results

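The 9 genes described here belong to the Bcl2 family and were taken by symbol from the 24447 genes of a single-cell count matrix of liver NKT (NK1.1+CD3e+) cells. They were Bcl2, Bcl2a1b, Bcl2a1d, Bcl2l1, Mcl1, Bax, Bak1, Bcl2l11 and Bid, and all 9 had a row in the matrix. The cells came from perfused livers of mice 8 to 10 weeks old, labelled as C57BL/6, and were sorted and picked by hand. Of the 1735 cells, 623 were from wild type (WT) mice, 725 from mice deficient in Jα18 and 387 from mice deficient in CD1d. Jα18-deficient mice lack the T cell receptor segment that type I NKT cells need, and in CD1d-deficient mice the molecule recognised by NKT cells of types I and II is missing, so that each is defined by a germline deletion present in all cells of the animal. Cells left in such livers are not the same mixture as in WT livers, and a difference between genotypes can be one of mixture or of level per cell, which cannot be told apart here. No sex and no number of mice was found in the labels or the methods.

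The labels list 8 libraries per genotype, but cell names in the matrix carry a genotype and a running number, so each genotype was 1 pool without replicates and no test was made between genotypes. Levels are given as UMIs of a gene per 1000000 UMIs of the pool (CPM, a UMI being a tag for 1 captured transcript) with exact Poisson 95% intervals, and shares of cells with exact Clopper-Pearson 95% intervals. Both cover counting error alone, since mice and libraries could not be told apart. The median depth was 40467 UMIs per cell in WT, 46670 in Jα18-deficient and 13508 in CD1d-deficient cells. Cd1d1, the deleted gene, had 854 UMIs in WT, 934 in Jα18-deficient and 0 in CD1d-deficient cells, which allows up to 0.206 CPM. The 5 T and NK cell markers used (Cd3e, Cd3d, Cd3g, Klrb1c and Il2rb) summed to 4672 to 5288 CPM in the pools, and each was present in all 3. Of the lists for other cell types, the 8 myeloid genes summed to 87.2, 23.3 and 613.3 CPM in the WT, Jα18-deficient and CD1d-deficient pools, mainly through Lyz2, while S100a9 was at 0 in all 3 pools. The 4 B cell genes reached 14.5 CPM and the 5 hepatocyte genes 27.9 CPM at most.

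Proteins of this family decide at the outer mitochondrial membrane whether a cell starts apoptosis. Bcl2, Bcl-xL (encoded by Bcl2l1), Mcl1 and A1 (encoded by the Bcl2a1 genes) hold the effectors Bax and Bak (encoded by Bak1) in check, while BH3-only proteins such as Bim (encoded by Bcl2l11) and Bid release or activate them. In lymphocytes, Bcl2 and Mcl1 are known to be sustained by cytokines such as interleukin 15, A1 is known to be induced through NF-kB after receptor signals, and Bim is known for removing T cells at the end of a response. The name survival genes fits Bcl2, Bcl2a1b, Bcl2a1d, Bcl2l1 and Mcl1, whereas Bax, Bak1, Bcl2l11 and Bid act towards death.

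Bcl2a1b and Bcl2a1d are near copies on mouse chromosome 9 and carry the most uneven values among the members, so their start regions are shown. The sequences come from RefSeq promoter windows of GRCm38.p6 and cover the stretch that both windows share, chr9:89199023-89199278 on the plus strand for Bcl2a1b and chr9:88731801-88732050 on the minus strand for Bcl2a1d, each read 5′ to 3′, with capitals at the bases that differ.
Bcl2a1b: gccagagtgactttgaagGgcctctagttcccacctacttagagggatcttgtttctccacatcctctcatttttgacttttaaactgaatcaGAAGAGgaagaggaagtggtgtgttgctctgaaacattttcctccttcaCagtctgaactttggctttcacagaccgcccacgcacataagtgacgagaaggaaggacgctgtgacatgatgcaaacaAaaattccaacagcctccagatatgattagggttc
Bcl2a1d: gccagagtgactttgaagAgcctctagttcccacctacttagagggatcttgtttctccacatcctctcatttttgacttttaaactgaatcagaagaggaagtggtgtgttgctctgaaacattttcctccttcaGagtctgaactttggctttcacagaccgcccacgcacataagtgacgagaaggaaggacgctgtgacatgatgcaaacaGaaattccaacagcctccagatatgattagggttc
Over the 250 aligned bases, 3 differed, and 6 bases were in the Bcl2a1b stretch and not in that of Bcl2a1d. The letters GAGGAAGT, which hold the GGAA core of Ets-type sites, lie in both stretches and in the window of Bak1, on either strand, against 3.20% of all 32851 promoter windows. Members were searched over 12 windows and the A1 genes are near copies, so the 3.20% gives no measure of enrichment. The match is one of letters and was not tested as a site.

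The likeness extends into the transcripts, which bears on how far the values of both genes can be separated. In the NCBIM37 (mm9) annotation Bcl2a1b lies on chromosome 9 from 89094047 to 89102665 and Bcl2a1d on chromosome 9 from 88618126 to 88626708, on opposite strands. Their annotated transcripts, of 817 and 816 bases, were 99.1% identical with 7 mismatches. Of all stretches of 100 bases, 30.9% of those in Bcl2a1b and 58.2% of those in Bcl2a1d also occurred in another Bcl2a1 transcript. How reads that match several copies were counted is not given in the sources used here, so the split between the copies is uncertain and their sum is given beside it. Of the other copies, Bcl2a1a had 71, 5 and 14 UMIs in WT, Jα18-deficient and CD1d-deficient cells and Bcl2a1c had 2, 0 and 0.

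Summed over all cells of a genotype, the survival members showed opposite orders of level. The A1 genes were highest in the WT pool, where Bcl2a1b led all members, and Bcl2 was higher in both deficient pools, where it led the members, than in WT. The order of Bcl2 between the pools depended on which cells were summed, as given for each class and for cells without UMIs of other cell types. Bcl2l1 differed by at most 1.13-fold between any 2 pools over all cells. UMI counts are not divided by transcript length, and levels of different genes are therefore set side by side as UMIs and not as molecules per length.

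**Figure D1:**
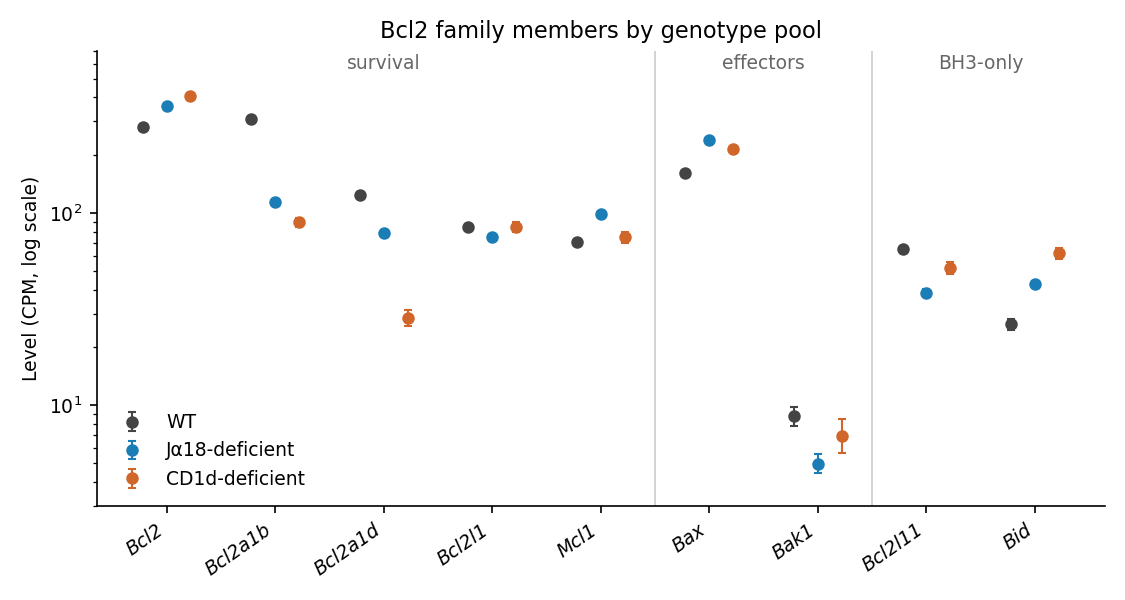
Levels of the 9 members in CPM (log axis) in the WT, Jα18-deficient and CD1d-deficient pools. Points are the summed level of a pool and bars its exact Poisson 95% interval, and the 3 pools of Bcl2a1b sit at 310.3, 113.7 and 89.6 CPM, while those of Bcl2l1 sit between 75.2 and 85.2 CPM.

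Bcl2a1b was at 310.3 CPM in WT (304.4 to 316.3), 113.7 CPM in Jα18-deficient (111.1 to 116.5) and 89.6 CPM in CD1d-deficient cells (84.8 to 94.6). The WT level was 2.73-fold and 3.47-fold that of the deficient pools, and no interval of these pools overlapped another. Bcl2a1d was at 125.0 CPM in WT (121.3 to 128.8), 78.8 CPM in Jα18-deficient (76.6 to 81.1) and 28.6 CPM in CD1d-deficient cells (25.9 to 31.4). It followed the same order. Summed over all 4 Bcl2a1 copies, the level was 437.4 CPM in WT, 192.6 CPM in Jα18-deficient and 119.1 CPM in CD1d-deficient cells, a sum that does not depend on how counted reads were split between copies.

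Bcl2, the founding member, lies on chromosome 1 from 108434755 to 108610851 (NCBIM37). It was at 281.0 CPM in WT (275.4 to 286.7), 362.4 CPM in Jα18-deficient (357.6 to 367.2) and 407.5 CPM in CD1d-deficient cells (397.2 to 418.0). The order was the reverse of that of the A1 genes and the steps were smaller, 1.29-fold and 1.45-fold over WT. Mcl1 (chromosome 3, 95462643 to 95467099) was at 70.4, 98.8 and 74.7 CPM in the same order of pools. Bcl2l1 (chromosome 2, 152593052 to 152657464) was at 85.2, 75.2 and 84.6 CPM. Neighbouring levels of Mcl1 in the WT and CD1d-deficient pools, and of Bcl2l1 in the same pools, did not differ beyond counting error.

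Read as 1 budget, the 5 survival members summed to 871.8 CPM in WT, 729.0 CPM in Jα18-deficient and 684.9 CPM in CD1d-deficient cells. Within it, Bcl2a1b and Bcl2a1d made up 49.9% of the UMIs in WT, 26.4% in Jα18-deficient and 17.3% in CD1d-deficient cells. Bcl2 made up 32.2%, 49.7% and 59.5%. There were thus 0.646 UMIs of Bcl2 per UMI of the 2 A1 genes in WT, 1.88 in Jα18-deficient and 3.45 in CD1d-deficient cells.

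**Figure D2:**
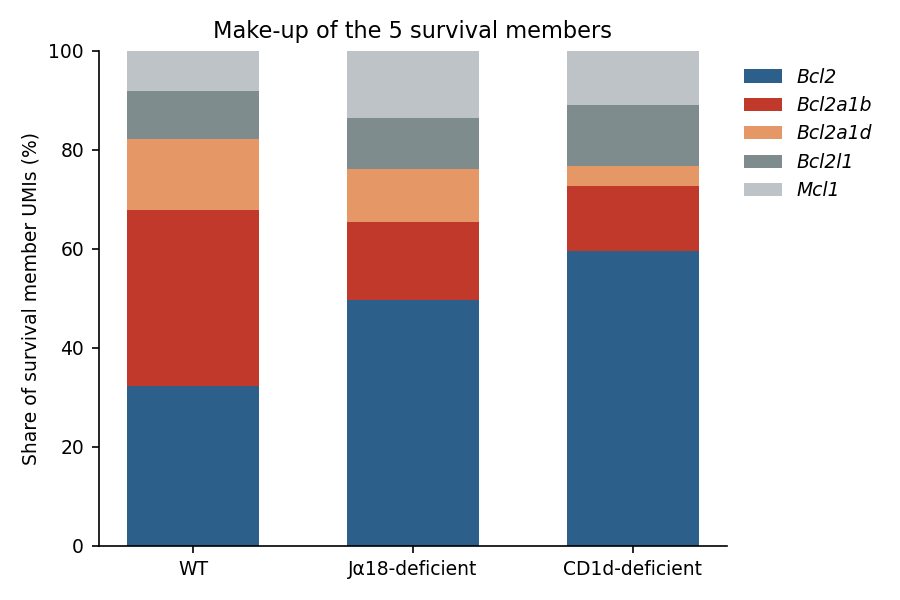
Share of the UMIs of the 5 survival members (percent) that each contributed, in the WT, Jα18-deficient and CD1d-deficient pools. Bars are stacked to the whole of a pool, and Bcl2a1b with Bcl2a1d take 49.9%, 26.4% and 17.3% of them, while Bcl2 takes 32.2%, 49.7% and 59.5%.

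Among the effectors, Bax (chromosome 7, 52717065 to 52722268), which forms pores in the outer mitochondrial membrane, was at 162.3 CPM in WT, 241.2 CPM in Jα18-deficient and 216.6 CPM in CD1d-deficient cells. Bak1 (chromosome 17, 27156755 to 27165954), its partner effector, was the lowest member in each pool, at 8.80, 4.98 and 6.95 CPM from 300, 301 and 101 UMIs. The place of the CD1d-deficient pool for Bax depended on how cells were counted, its log2 ratio to WT being 0.42 over all cells, -0.10 with cells thinned to 10000 UMIs each, -0.10 with equal weight of cells and -0.28 without the 5% of cells richest in Bax.

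Of the BH3-only members, Bid was highest in the CD1d-deficient pool over all cells, and Bcl2l11 was below its WT level in Jα18-deficient cells. Bcl2l11 (chromosome 2, 127951774 to 127988283) was at 64.7, 38.6 and 51.9 CPM in the WT, Jα18-deficient and CD1d-deficient pools, and Bcl2 exceeded it 4.35, 9.38 and 7.85 times. Its order between the WT and CD1d-deficient pools was not settled, since the CD1d-deficient level was the higher one with thinned cells, equal weight of cells and without cells holding UMIs of other types (log2 ratios of 0.24, 0.38 and 0.32). Bid (chromosome 6, 120841948 to 120866871), which caspase 8 cleaves downstream of death receptors, was at 26.4 CPM in WT (24.7 to 28.2), 42.9 CPM in Jα18-deficient (41.3 to 44.6) and 62.0 CPM in CD1d-deficient cells (58.0 to 66.2). Casp8 itself varied less, at 204.9, 206.0 and 174.9 CPM.

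Set against all genes with 100 UMIs or more in a pair, the count of members with a ratio of at least 2-fold was near the background. Between the Jα18-deficient and the WT pool 1 of 9 members passed it, Bcl2a1b, which was lower in the Jα18-deficient pool, against 21.2% of the genes that had 100 UMIs or more in that pair, 7.14% of genes being lower. Between the CD1d-deficient and the WT pool 3 of 9 passed, Bcl2a1b and Bcl2a1d as lower and Bid as higher, against 24.5% of genes, 12.3% being lower. Between the CD1d-deficient and the Jα18-deficient pool 1 of 9 passed, Bcl2a1d as lower, against 27.3% of genes, 17.8% being lower. By this minimum of 100 UMIs, the family as a list thus stood near the other genes.

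The background was smaller among well-counted genes, a second reading added after the data were seen. Where a pair held 1000 UMIs or more of a gene, 8.9% of genes passed a 2-fold ratio between the Jα18-deficient and WT pools, 10.9% between the CD1d-deficient and WT pools and 14.1% between the deficient pools. Of the 8 members that reached this minimum, all but Bak1, the counts were again 1, 3 and 1. Between the CD1d-deficient and WT pools, 3 of 8 was thus above the 10.9% of genes, with both A1 genes, which are near copies, among the 3. In the other pairs 1 of 8 stood beside 8.9% and 14.1%. With all genes of 100 UMIs or more ordered by their ratio to WT, the percentile of Bcl2a1b was 3.89 for the Jα18-deficient pool and 4.76 for the CD1d-deficient pool. The percentile of Bcl2a1d was 12.3 and 3.28, and that of Bcl2 64.7 and 76.0. Both comparisons share the WT pool.

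The lower Bcl2a1b level of the Jα18-deficient pool held in all 9 other ways of computing it, with log2 ratios to WT from -1.99 to -1.17, each past 2-fold. The value of -1.99 was that without the 5% of cells richest in Bcl2a1b, a choice made on the gene itself. Against WT, the CD1d-deficient pool gave log2 ratios from -5.29 to -1.47 in all 9, the first being within the small class of S1pr1+ cells. Bcl2a1d was lower than WT in all 9 as well, and passed 2-fold in 2 of them for the Jα18-deficient pool and in 8 for the CD1d-deficient pool. For Bid, 6 of 9 kept the CD1d-deficient pool at least 2-fold above WT.

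UMIs of cell types outside the gate moved with the pools and were set beside these values. At least 3 UMIs of the myeloid, B cell or hepatocyte lists were present in 33.2% of the cells from WT, 26.3% from Jα18-deficient and 65.9% from CD1d-deficient livers. In cells without them, Bcl2a1b was at 339.6 CPM in WT, 111.7 CPM in Jα18-deficient and 39.2 CPM in CD1d-deficient cells, so the difference between WT and the deficient pools was at least as large there. Bid was at 28.1, 27.5 and 49.6 CPM and Bax at 199.4, 219.5 and 96.9 CPM in the same cells, so that the order of Bax between the WT and CD1d-deficient pools turned. Bcl2 was at 251.1, 346.2 and 283.8 CPM there, and was thus highest in the Jα18-deficient pool, with the CD1d-deficient pool close to WT. Bcl2l1 was at 80.0, 81.9 and 144.2 CPM and Mcl1 at 75.6, 96.1 and 51.9 CPM, so neither kept the near equality of the WT and CD1d-deficient pools seen over all cells. The CD1d-deficient cells without such UMIs were shallow, with a median of 5869 UMIs, and the part of depth in these values was not tested.

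The pools also differed in how many cells gave a UMI. Bcl2a1b was detected in 72.4% (68.7 to 75.9%) of WT, 53.0% (49.3 to 56.6%) of Jα18-deficient and 29.2% (24.7 to 34.0%) of CD1d-deficient cells. With each cell thinned to 10000 UMIs, which left out 100, 93 and 160 shallower cells, the shares were 61.2% (56.9 to 65.4%), 33.1% (29.4 to 36.9%) and 23.8% (18.4 to 29.9%). The WT pool thus stood apart from both deficient pools at equal depth, and the deficient pools overlapped in their intervals.

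Bcl2a1d was detected in 51.0%, 35.6% and 15.5% of cells, or 43.2%, 21.8% and 12.3% once thinned. Any of the 4 Bcl2a1 copies was detected in 75.1% of thinned WT cells, 44.2% of thinned Jα18-deficient cells and 30.0% of thinned CD1d-deficient cells. By contrast, Bcl2 was detected in 60.2%, 65.2% and 63.9% of thinned cells, with overlapping intervals, although its CPM differed between the pools.

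The remaining members gave differences of under 10 percentage points at equal depth. Bcl2l1 was detected in 24.9%, 25.6% and 24.7% of thinned cells, Mcl1 in 25.4%, 32.3% and 25.1%, and Bax in 51.1%, 50.8% and 45.8%. Bcl2l11 was detected in 19.5%, 15.8% and 21.2% of thinned cells and Bid in 10.5%, 13.6% and 18.9%, the intervals of WT and CD1d-deficient cells being apart for Bid (8.02 to 13.5% and 14.1 to 24.7%). Bak1 was detected in 4.78%, 3.16% and 3.08%.

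**Figure D3:**
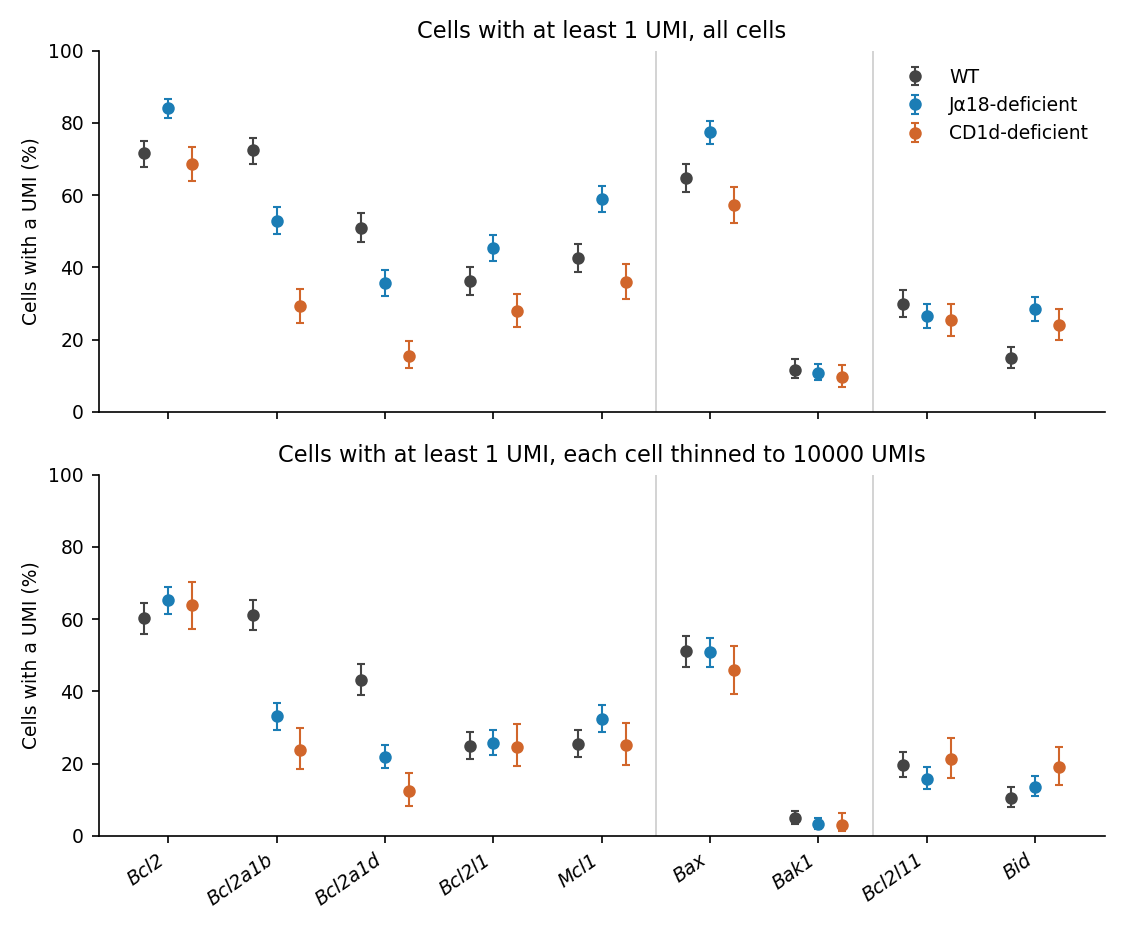
Percent of cells with at least 1 UMI of each member in the WT, Jα18-deficient and CD1d-deficient pools, over all cells (top) and with each cell thinned to 10000 UMIs (bottom). Bars are exact Clopper-Pearson 95% intervals, and at equal depth Bcl2a1b is at 61.2%, 33.1% and 23.8% while Bcl2 lies between 60.2% and 65.2%.

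Free RNA can put UMIs into cells that do not use a gene, so genes foreign to sorted T cells were read alongside. Cd79a, a B cell gene, had a UMI in 1.91%, 0.317% and 0.441% of thinned WT, Jα18-deficient and CD1d-deficient cells, and Alb, a hepatocyte gene, in 1.91% of thinned WT cells. Lyz2 had a UMI in 30.4%, 12.03% and 91.6% of thinned cells, so a share of this size is not by itself a sign of expression in these pools. Cd79b, a further B cell gene, had a UMI in 1.53%, 3.32% and 3.965% of them, and Trf, of the hepatocyte list, in 6.12%, 7.91% and 8.37%. Bak1, the rarest member, was above Cd79a but below Trf and Lyz2 in all 3 pools, and below Cd79b in both deficient pools. Its detection was thus within the range of these foreign genes. Measured by Lyz2 alone, Bcl2l1, Mcl1, Bcl2l11 and Bid were also below it in thinned WT cells. Every member was below Lyz2 in thinned CD1d-deficient cells, the highest being Bcl2 at 63.9%. In thinned Jα18-deficient cells Bak1 alone was below it.

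UMIs of the members were held by few cells. The 5% of cells with the most UMIs of a gene held 38.0% of those of Bcl2a1b in WT, 58.5% in Jα18-deficient and 76.3% in CD1d-deficient cells. For Bcl2 these shares were 38.8%, 44.8% and 52.9%, and over all members they ran up to 86.0%, for Bak1 in the WT pool. Without those cells Bcl2a1b was at 219.4, 55.2 and 24.2 CPM, a wider spread between the pools, and Bcl2 at 196.7, 241.3 and 237.4 CPM. The cells left out were picked by their UMIs of the same gene. A pool whose UMIs sit in fewer cells therefore loses more, and the wider spread is no separate evidence of a difference.

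Within a cell, detection of 1 member said little of the others. Of thinned cells, 4.78% in WT, 10.9% in Jα18-deficient and 14.5% in CD1d-deficient cells had no UMI of any of the 5 survival members, and 35.2%, 24.4% and 14.5% had UMIs of 3 or more. Across thinned cells, Spearman's rho between Bcl2a1b and Bcl2a1d was 0.152 over 523 WT cells, 0.174 over 632 Jα18-deficient cells and 0.288 over 227 CD1d-deficient cells. The other 35 pairs of members lay between -0.106 and 0.173. These are descriptions over sparse counts of cells that share a pool, and the former pair may share reads.

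The members were then compared between cells with a UMI of Cd8a, the co-receptor of cytotoxic T cells, and cells with a UMI of S1pr1, the receptor by which lymphocytes leave tissue. Cd8a+S1pr1- cells numbered 91, 267 and 214 in the WT, Jα18-deficient and CD1d-deficient pools, Cd8a-S1pr1+ cells 31, 56 and 18, and Cd8a-S1pr1- cells 495, 345 and 135. The 83 cells with both were left out of the test. A single UMI made 38.8% of the 655 Cd8a+ cells and 44.7% of the 188 S1pr1+ cells positive, and depth differed between classes. In Cd8a-S1pr1-, Cd8a+S1pr1- and Cd8a-S1pr1+ cells the median was 37325, 54522 and 57516 UMIs in the WT pool. It was 30019, 62572 and 59990 UMIs in the Jα18-deficient pool and 8799, 18876 and 8913 UMIs in the CD1d-deficient pool. The Cd8a-S1pr1- class was thus the shallowest in each pool. Counts were summed per pool and class and tested with edgeR's quasi-likelihood test, with terms for class and pool, on n = 3 pools, the replicates being different genotypes.

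In these classes 0 of the 9 members changed in any of the 3 comparisons, a call requiring an adjusted p under 0.05 together with a fold change of over 0.25 in size on the ln scale. Few genes of any kind did. Of the 10396 genes tested, 7 (0.0673%) were called between Cd8a-S1pr1+ and Cd8a+S1pr1- cells, 1 (0.00962%) between Cd8a+S1pr1- and Cd8a-S1pr1- cells and 1 (0.00962%) between Cd8a-S1pr1+ and Cd8a-S1pr1- cells. Cd8a and S1pr1, whose UMIs define the classes, were not taken out of the genes tested. A call of either would follow from the class definition, and these counts may include them. At an unadjusted p under 0.05 there were 918, 154 and 837 genes, and 0, 0 and 2 members. The median log2 fold change over the 9 members was -0.09, -0.05 and 0.06 in these comparisons, beside -0.21, -0.0021 and -0.20 over all genes. DESeq2 called 215, 4 and 118 genes and limma 5, 1 and 1, and neither called a member.

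The 2 members with the smallest p were Bax and Bcl2l1, both between Cd8a-S1pr1+ and Cd8a-S1pr1- cells. Bax was at 175.8, 327.6 and 354.8 CPM in the Cd8a-S1pr1+ cells of the WT, Jα18-deficient and CD1d-deficient pools and at 157.9, 187.0 and 158.8 CPM in the Cd8a-S1pr1- cells. It was higher in 3 of 3 pools, with a log2 fold change of 0.85 ± 0.31 (SE), but did not pass the test over all genes (edgeR, adjusted p = 0.612). The size depended on the setting, the log2 fold change being -0.07 with thinned cells and 0.12 with S1pr1 taken alone. The former classes cells anew by their thinned counts, and the latter sets all S1pr1+ against all S1pr1- cells whatever their Cd8a. Both thus also change which cells are compared. Bcl2l1 was at 46.8, 48.9 and 46.1 CPM in the Cd8a-S1pr1+ cells and at 90.4, 85.0 and 169.3 CPM in the Cd8a-S1pr1- cells. It was lower in 3 of 3 pools, with a log2 fold change of -1.09 ± 0.50 (SE), and did not pass either (edgeR, adjusted p = 0.612), and this was -0.46 with thinned cells and -0.12 with S1pr1 taken alone.

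Within each class of cells, Bcl2a1b was highest in the WT pool. Bcl2a1b was at 333.2 CPM in the Cd8a-S1pr1- cells of the WT pool, 234.7 CPM in the Cd8a+S1pr1- cells and 269.9 CPM in the Cd8a-S1pr1+ cells. In the Jα18-deficient pool the same classes were at 126.9, 104.5 and 114.5 CPM. In the CD1d-deficient pool they were at 113.4, 84.9 and 6.91 CPM. Each WT class was above each class of the deficient pools, and the order of the genotypes was as in all cells. The lowest of these values rested on 3 UMIs in 2 of 18 cells (interval 1.43 to 20.2 CPM).

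The A1 share of the survival UMIs kept the same order within each class. It was 51.5%, 27.7% and 20.6% in the Cd8a-S1pr1- cells of the WT, Jα18-deficient and CD1d-deficient pools. It was 45.0%, 24.7% and 15.6% in the Cd8a+S1pr1- cells, and 43.1%, 29.4% and 20.1% in the Cd8a-S1pr1+ cells. Bcl2a1d alone was less even, at 138.2, 78.4 and 50.3 CPM in the Cd8a-S1pr1- cells and 80.8, 74.7 and 17.4 CPM in the Cd8a+S1pr1- cells, and its 76.0 CPM in the Cd8a-S1pr1+ cells of the CD1d-deficient pool came from 33 UMIs of 1 cell.

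The share of Bcl2 did not keep its order in every class. It was 31.0%, 47.0% and 48.8% in the Cd8a-S1pr1- cells of the WT, Jα18-deficient and CD1d-deficient pools and 35.6%, 51.5% and 64.4% in the Cd8a+S1pr1- cells, but 44.0%, 48.2% and 41.9% in the Cd8a-S1pr1+ cells. In the Cd8a-S1pr1+ cells the sum of the 5 survival members was 868.0, 667.7 and 412.4 CPM, so that the CD1d-deficient pool was lower in the whole sum there.

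**Figure D4:**
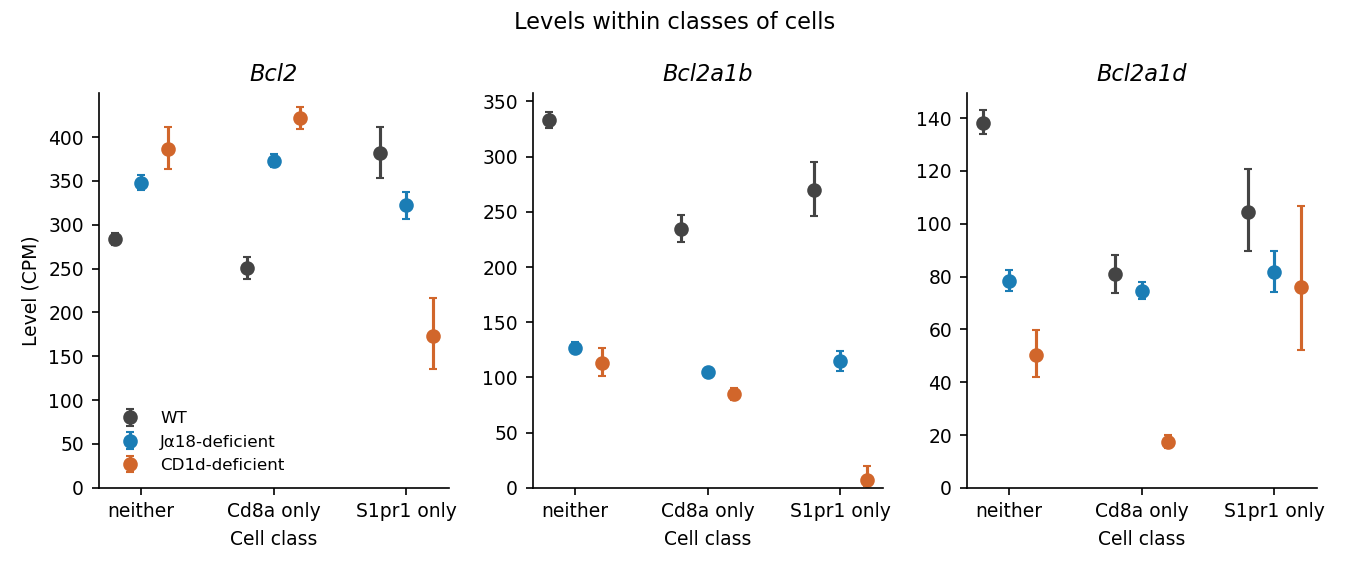
Levels (CPM) of Bcl2, Bcl2a1b and Bcl2a1d in Cd8a-S1pr1- cells (neither), Cd8a+S1pr1- cells (Cd8a only) and Cd8a-S1pr1+ cells (S1pr1 only), in the WT, Jα18-deficient and CD1d-deficient pools. Points are summed levels and bars exact Poisson 95% intervals, and in each class Bcl2a1b is highest in the WT pool, at 333.2, 234.7 and 269.9 CPM.

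Bcl2 was at 283.5, 348.0 and 386.7 CPM in the Cd8a-S1pr1- cells of the WT, Jα18-deficient and CD1d-deficient pools and at 250.2, 372.9 and 421.8 CPM in the Cd8a+S1pr1- cells. In the Cd8a-S1pr1+ cells it was at 381.8, 322.1 and 172.8 CPM. The order of the genotypes was thus that of all cells in the former classes and the reverse in the Cd8a-S1pr1+ cells, where the log2 ratio of the CD1d-deficient to the WT pool was -1.14, the CD1d-deficient value resting on 75 UMIs in 13 of 18 cells (interval 135.9 to 216.6 CPM). The 6, 57 and 20 cells with UMIs of both Cd8a and S1pr1 are in none of these classes. In them Bcl2 was at 156.2, 382.3 and 416.9 CPM, the order of all cells. The reverse order thus holds for S1pr1+ cells without Cd8a and not for those with it. In edgeR the log2 fold change of Bcl2 was -0.09 ± 0.33 (SE) between Cd8a-S1pr1+ and Cd8a+S1pr1- cells (adjusted p = 0.960). That of Bcl2a1b in the same comparison was -0.33 ± 0.55 (SE, adjusted p = 0.899), and that of Bcl2a1d 0.96 ± 0.51 (SE, adjusted p = 0.610). With SEs of this size, a difference of 2-fold in these genes was not reliably detectable with 3 pools.

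**Figure D5:**
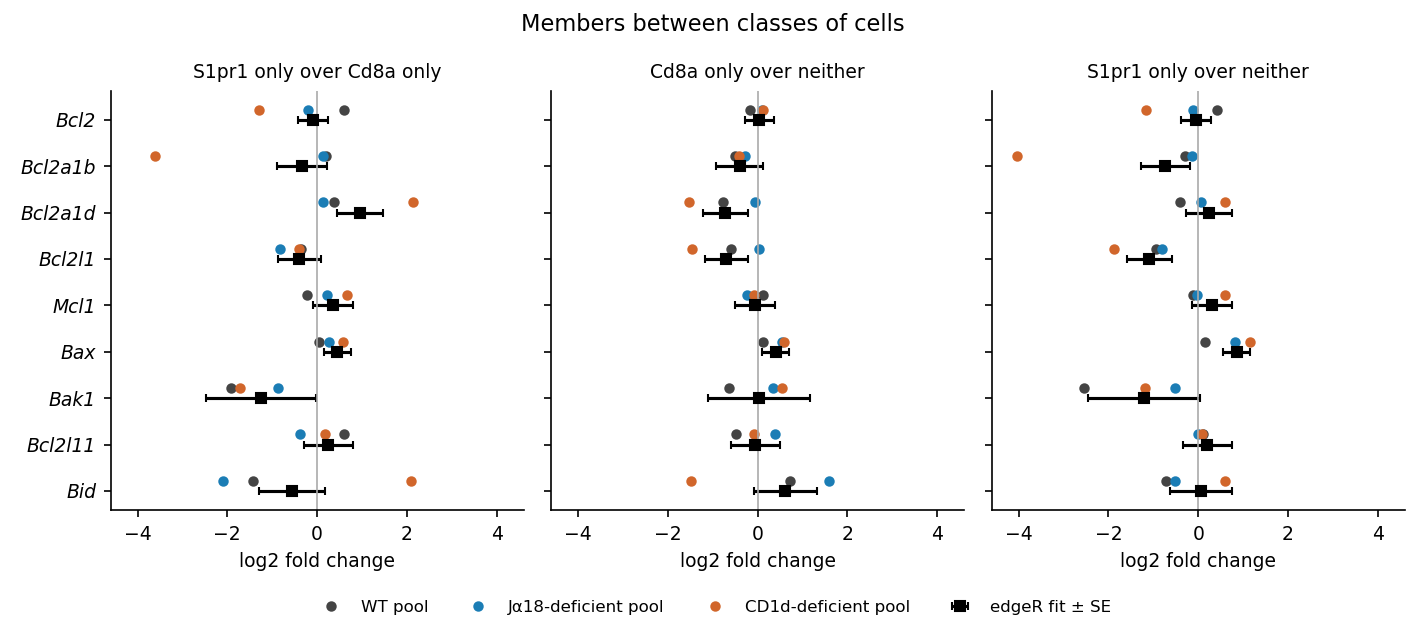
Log2 fold change of each member between classes of cells, as the edgeR fit with its SE (squares and bars) and as the ratio of CPM within the WT, Jα18-deficient and CD1d-deficient pools (circles). No member passed the test in any panel, and the 3 pools of Bid lie on both sides of 0, at -1.43, -2.10 and 2.09 in the left panel.

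Other detection classes were read without a test. Cells with a UMI of Mki67, a proliferation marker, numbered 23, 72 and 14 in the WT, Jα18-deficient and CD1d-deficient pools. In them Bcl2 was at 399.1, 490.2 and 349.0 CPM, against 271.7, 333.7 and 415.6 CPM in cells without Mki67, so the direction turned in the CD1d-deficient pool. Bcl2a1b was at 193.2, 116.3 and 85.4 CPM in Mki67+ cells and at 319.6, 113.2 and 90.1 CPM in the others, and its WT pool was highest in both.

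Cells with a UMI of Cd4, the helper co-receptor, numbered 222, 175 and 11. Bcl2a1d was at 135.8, 124.3 and 38.9 CPM in Cd4+ cells and 114.4, 55.3 and 28.4 CPM in Cd4- cells, which was higher in Cd4+ cells of all 3 pools, the last from 6 UMIs. Bcl2a1b was at 329.8, 120.2 and 103.7 CPM in Cd4+ cells and 291.4, 110.4 and 89.4 CPM in Cd4- cells. By any of 18 Ly49 (Klra) genes, which encode NK cell receptors, Bcl2a1b was at 285.6, 113.8 and 77.8 CPM in Ly49+ cells and 340.8, 110.1 and 266.8 CPM in Ly49- cells. Bcl2a1d was at 109.0, 78.8 and 20.7 CPM in Ly49+ cells and 144.7, 78.5 and 147.2 CPM in Ly49- cells, so that its CD1d-deficient pool was not below WT among Ly49- cells. The 53 Ly49- cells of the CD1d-deficient pool, with 15 of them holding Bcl2a1b, were a group singled out after its values were seen.

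The wider apoptosis machinery was covered by 50 further genes, from other family members to caspases and death receptors. Of these, 41 could be tested between classes and 0 were called in edgeR in any comparison, with 3, 0 and 0 at an unadjusted p under 0.05. Those 3, all between Cd8a-S1pr1+ and Cd8a+S1pr1- cells, were Casp4, an inflammatory caspase (edgeR, adjusted p = 0.531), Bnip3, a mitophagy receptor (adjusted p = 0.550), and Bcl2l2, a further survival member (adjusted p = 0.555) seen in 7, 7 and 0 cells of the pools. Between Cd8a+S1pr1- and Cd8a-S1pr1- cells the smallest p belonged to Bcl2l2, Apaf1 and Ripk1, and between Cd8a-S1pr1+ and Cd8a-S1pr1- cells to Bnip3, Bcl2l15 and Bik. The median log2 fold change over the 41 genes was -0.32, 0.07 and -0.37.

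Between the pools, 3 of the 43 such genes that held 100 UMIs or more were at least 2-fold lower in the Jα18-deficient pool than in WT, and 6 were higher, a count near the 21.2% of all genes past 2-fold in that pair. The death receptor Fas was at 15.4 against 43.2 CPM, the inflammatory caspase Casp1 at 5.03 against 17.2 CPM and Aifm1, a mitochondrial flavoprotein, at 14.1 against 32.1 CPM. Of the 588 UMIs of Casp1 in the WT pool, 238 were in 1 cell. With thinned cells Casp1 was at 6.80 against 13.4 CPM, and in cells without UMIs of other types at 6.91 against 11.6 CPM. It was lower in both but by under 2-fold. Higher in the Jα18-deficient pool were Ripk1, a kinase of death receptor complexes, at 22.6 against 7.42 CPM, Bbc3, which encodes the BH3-only protein Puma, at 13.0 against 5.69 CPM, and the apoptosome gene Apaf1 at 4.48 against 1.85 CPM. Tnfrsf10b, Endog and Bcl2l14 were higher too, the last from 229 UMIs in 2 cells.

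Between the CD1d-deficient and the WT pool 3 of 37 such genes were lower and 3 higher, which is not above the 24.5% of all genes. Casp1, Birc2 and Birc5 were lower, with Casp1 at 6.05 CPM and Birc2, an inhibitor of apoptosis, at 11.1 against 22.9 CPM. Apaf1, Ripk1 and Bnip3 were higher, with Apaf1 at 8.12 CPM and Ripk1 at 16.2 CPM. Of the 244 UMIs of Birc5 in the WT pool, 226 were in 1 cell, and its order turned once thinned, at 1.147 CPM in WT and 4.41 CPM in CD1d-deficient cells. In cells without UMIs of other types, WT and CD1d-deficient cells were at 11.6 and 12.7 CPM for Casp1, 19.1 and 21.9 CPM for Birc2 and 8.33 and 5.77 CPM for Ripk1. None of these kept its order, but the CD1d-deficient levels rest on few UMIs. For scale, Bak1 at 9.23 CPM in the same cells came from 8 UMIs (interval 3.98 to 18.2 CPM). The order of Casp1, Birc2 and Ripk1 was thus not settled there.

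Between the CD1d-deficient and the Jα18-deficient pool 6 of 41 such genes were lower and 2 higher, which is not above the 27.3% of all genes. Bnip3 was at 26.5 against 7.67 CPM and Aifm1 at 40.0 against 14.1 CPM. Birc2, Birc5, Casp9 and Endog were lower in the CD1d-deficient pool over all cells. For Casp9, 227 of the 599 UMIs of the Jα18-deficient pool were in 1 cell, and with thinned cells it was at 4.75 CPM there and 7.05 CPM in CD1d-deficient cells, the other order. Bcl2l2 and Bcl2l14 had no UMI there and were at least 15.9-fold and 18.3-fold lower, by a floor of 3 UMIs in the pool, but in the Jα18-deficient pool they came from 7 and 2 cells.

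Over the 9 sums of pool and class, the genes whose log2 CPM was most like that of a member were named as a description, among 10396 genes and with the sums sharing pools. For Bcl2 these were Lasp1, Ubxn2b and Fosb, with Pearson's r of 0.958, 0.957 and 0.949. For Bcl2a1b they were Igtp, Aldoa and Slc25a13, with r of 0.976, 0.973 and 0.971. For Mcl1 they were Ropn1l, Arl4c and Klrg1, with r of 0.960, 0.932 and 0.927, and for Bcl2l11 Eif3m, Rnf181 and Eri1, with r of 0.912, 0.890 and 0.881. Among the members themselves, Bcl2a1b and Bcl2a1d had an r of 0.257, Bcl2 and Bcl2a1b one of 0.582 and Mcl1 and Bax one of 0.755. Of the 9 sums, the Cd8a-S1pr1+ cells of the CD1d-deficient pool were lowest for both Bcl2 (172.8 CPM) and Bcl2a1b (6.91 CPM, from 3 UMIs). How far the r values of these genes rest on that sum was not tested. In the Cd8a-S1pr1- and Cd8a+S1pr1- cells, the WT pool was highest for Bcl2a1b and lowest for Bcl2.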

How the data were processed

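NK1.1+CD3e+ cells from livers of 3 genotypes were profiled by single-cell RNA sequencing. The authors' methods name Cutadapt v1.15 for trimming, Tophat v2.0.12 for alignment (mm9 transcriptome), deduplication by UMI and HTSeq v0.10.0 for counting. The deposited values are raw UMI counts, whole numbers for 24447 genes in 1735 cells. The methods state a filter of 10000 to 600000 transcripts and over 500 genes per cell, but 353 cells of the matrix hold fewer than 10000 UMIs and were kept. Doublets were not called, as cells were picked by hand.

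Cells were grouped by the genotype in their names, since neither library nor mouse is named. Pools stood in for the libraries that the tests were planned on. The pools held 34102694, 60484252 and 14536585 UMIs in 623, 725 and 387 cells. Levels were CPM with exact Poisson 95% intervals and shares had exact Clopper-Pearson 95% intervals, both for counting error alone. A count of 0 was given a limit of 3 counts. Counts were summed per pool and class of cells and tested on all 10396 genes passing filterByExpr with edgeR 4.0.16 (TMM, quasi-likelihood, terms for class and pool, Benjamini-Hochberg over all genes). Pools of different genotypes were the replicates, and the pool term took up differences in level between them. The p-values therefore also measure how far class differences vary between genotypes. Fits were tested on simulated data. DESeq2 1.42.0 and limma 3.58.1 on log2 CPM with a prior count of 2 in R 4.3.3 were alternatives, as were the cell filter of the methods, a minimum of 3 UMIs for a class, thinned cells, equal weight of cells, no pool term and each pool left out. Leaving out the 5% of cells richest in a gene and a minimum of 1000 UMIs were alternatives chosen once the data had been seen. Python 3.11.15 was used for tables.

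The 9 members, the marker lists and the 50 further apoptosis genes were chosen with earlier results of these data known. All members are named. Further apoptosis genes are named when called, or else as the 3 with the smallest p, and between pools when past 2-fold with at least 100 UMIs in the pair. Of 6 T and NK cell markers, 5 were used. Positions are those of NCBIM37, and promoter windows those of RefSeq for GRCm38.p6, matched by symbol for 9 of 9 members. The builds were not mixed. Sorting, cytokine and tumour experiments were not analysed here.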

Additional observations from a re-analysis of the deposited data

Results flagged for a closer look

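Bid, which encodes a BH3-only protein, moved in opposite directions between classes of cells in different genotypes, and this difference was not tested. Its log2 ratio of CPM between Cd8a-S1pr1+ and Cd8a+S1pr1- cells was -1.43 in WT, -2.10 in Jα18-deficient and 2.09 in CD1d-deficient cells. Between Cd8a+S1pr1- and Cd8a-S1pr1- cells it was 0.71, 1.58 and -1.49. The values of the CD1d-deficient pool rested on 81 UMIs in 7 of 18 Cd8a-S1pr1+ cells, of which 1 cell held 46, and on 329 UMIs in 24 of 135 Cd8a-S1pr1- cells, of which 1 cell held 164. In the WT pool 3 Cd8a-S1pr1+ cells held Bid, with 22 of 26 UMIs in 1 cell.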

How the results depend on the processing

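Over the alternatives for the classes of cells, 0 members were called among 339 values, the lowest adjusted p being 0.165 for Bax (edgeR, DESeq2 and limma settings together), while 53 values changed sign and 19 had an unadjusted p under 0.05. Over all genes, DESeq2 called 215, 4 and 118 against 7, 1 and 1 in edgeR. Classes of Cd8a or S1pr1 taken alone give no value between Cd8a+ and S1pr1+ cells. No paired analysis was possible because the cell names carry no replicate number of the libraries, and the pool was a term in the class fit instead (0 members were called without that term too). Between the Jα18-deficient and WT pools, the count of members past 2-fold was 1, but 2 with thinned cells, without cells holding UMIs of other types and within Cd8a-S1pr1- cells, and 3 without the 5% of cells richest in a gene. Between the deficient pools the count was 1, but 0 with thinned cells or equal weight of cells, 5 without cells holding UMIs of other types, and 2 within Cd8a-S1pr1+ cells or without the richest 5% of cells. Between the CD1d-deficient and WT pools the count was 3, or 2 to 4 over the alternatives, of which 2 came within Cd8a+S1pr1- cells and with equal weight of cells, and the members were not always the same, Bid having a log2 ratio of 0.82 without cells holding UMIs of other types, where Bax passed at -1.04, and Bcl2a1d one of -0.46 in Cd8a-S1pr1+ cells. The median share of cells with a UMI over the members was 42.5% in the WT pool, 25.4% once thinned and 46.7% in cells within the filter of the methods. The Jα18-deficient pool gave 45.4%, 25.6% and 49.7%, and the CD1d-deficient pool 27.9% with 33.0% within that filter. With no minimum count, 38.0%, 41.9% and 43.5% of genes passed 2-fold in the 3 comparisons. Of the values for single members, 165 ratios between pools and 36 shares of cells lay outside the counting interval of the value over all cells, and 78 and 18 did not. That interval leaves out the counting error of the alternative itself, and thinning lowers a share of cells by construction. These counts are therefore not counts of changes beyond counting error. The low depth of the CD1d-deficient pool and its 18 Cd8a-S1pr1+ cells limit the values there, and the causes were not tested.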
